A study of Saccharomyces cerevisiae with 4 samples.

Results

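The right arm of chromosome XII of budding yeast carries the ribosomal DNA (rDNA), and the stretches of that arm on both sides of the rDNA are described here from genome-wide contact maps. The members are 286 HindIII restriction fragments of 4381 that could be paired between the maps, from 12 to 297 fragments right of the centromere in the order of the maps. The division into sides was chosen by contact counts of the 25 °C map, at the row with the fewest contacts between the fragments before it and those after it, relative to the totals of both sides. The far side, beyond the rDNA, held 177 fragments, all of which passed a filter on low totals. The near side, between the centromere and the rDNA, held 109, of which 107 passed.

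Hi-C ligates DNA ends that are near each other in crosslinked nuclei, and each sequenced ligation product counts as 1 contact between a pair of fragments. In the heat-shift group, BY4742 cells in the rich medium YPD were grown at 25 °C, diluted with an equal volume of prewarmed fresh YPD, held at 37 °C for 15 minutes and fixed at 37 °C. In the group grown at 25 °C, the other aliquot of the divided culture was fixed at 25 °C without added medium. Both were fixed in 3% formaldehyde. The heated aliquots thus differed by the shift to 37 °C, by the added medium and by the temperature of fixation, and these cannot be told apart. Each group had 2 biological replicates, which the authors combined into 1 map, so no replicate error can be given and no test was run. All intervals are 95% intervals that cover counting error only.

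The rDNA is a tandem array of the genes for ribosomal RNA, which RNA polymerase I and, for the smallest of these RNAs, RNA polymerase III transcribe. The array forms the nucleolus, a compartment at one side of the yeast nucleus, opposite the spindle pole body. At the spindle pole body the centromeres of all chromosomes are held together, and the arms extend away from it, so that fragments close to a centromere meet the centromeres of other chromosomes often and distant fragments meet them seldom. Chromosome XII is the only yeast chromosome whose arm passes through the nucleolus.

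In the R64 gene table the annotated rDNA runs from position 451575 to 489469 of chromosome XII. It lists 2 copies each of RDN37, the precursor transcript, and of RDN25, RDN18 and RDN58, the mature RNAs cut from it, with 6 copies of RDN5, transcribed separately. Between the RDN5 copies lie 4 copies of ASP3, which encodes asparaginase. Living cells carry many more repeats than the table, and the maps hold no fragments that can be set to single repeats. The deposited maps name no fragments and give no coordinates, so the arm was placed through the chromosome blocks and centromeres seen in the maps. Gene positions were interpolated, with the edges of the annotated rDNA set at the row where the maps divide, and are approximate. Interpolated without the rDNA as an anchor, the rDNA fell 12.2 fragments (36.0 kb) from that row. Fragments averaged 2.51 kb on the near side and 3.05 kb on the far side.

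The 25 °C map, which chose the members, had 4694 contacts across row 2823. One row earlier there were 4942 contacts across and one row later 5201, and both rows scored higher. Only rows 2780 to 2835 were searched. In the 37 °C map, which did not choose the row, the same score over these rows was lowest at the same row. It had 2180 contacts across it, against 2222 and 2306 for the neighbouring rows. These counts are close, so the place is not settled to a single fragment in that map.

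Depth was similar on both sides. Far-side fragments had a median of 621 contacts in the 37 °C map (203 to 2479) and 2369 in the 25 °C map (509 to 3767). Near-side fragments had medians of 643 (15 to 2872) and 2381 (145 to 7122). Over all fragments the medians were 718 and 2730, so the 37 °C map is the shallower and its ratios are the less precise. Inter-chromosomal pairs made up 78.1% of far-side contacts at 37 °C and 85.4% at 25 °C, and 82.2% and 89.8% of near-side contacts. Over all fragments they were 81.3% and 88.4%. These shares depend on contacts within chromosomes, where low counts are missing for close pairs, more so at 25 °C. Differences in them between the maps are thus not read as a change. The last near-side fragment, at the split itself, had the most contacts of all fragments in the 25 °C map, 7122, and 1842 at 37 °C. A group of fragments gained far more contacts than the rest in the 37 °C map (a fitted factor ratio above 2 times the median). These raised fragments included 24 far-side fragments (13.6%), 11 near-side fragments (10.3%) and 580 of all fragments (13.5%).

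The first question was how each side of the rDNA met the centromeres of other chromosomes. Values are observed contacts over the number expected from the fragments' own inter-chromosomal totals, so 1 is the average of the map. They count contacts with fragments within 7 fragments (about 20 kb) of 13 centromeres, leaving out those of chromosomes IV, XII and XIII. The comparison set was fragments equally far from the centromere on the right arms of chromosomes IV and XIII, which hold no rDNA.

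The far side met centromeres less often than the matched fragments in both maps. In the 37 °C map it had 1780 contacts, 0.325 times the expected number (0.310 to 0.340), and the matched fragments had 0.378. In the 25 °C map it had 3419 contacts, 0.170 times the expected number (0.165 to 0.176), against 0.229. The log2 ratio of the far side over matched fragments was -0.22 at 37 °C (-0.30 to -0.13) and -0.43 at 25 °C (-0.48 to -0.37).

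The near side stood on the other side of its matched fragments. In the 37 °C map it had 3695 contacts with centromere regions, 0.999 times the expected number (0.967 to 1.03), against 0.707 for matched fragments. In the 25 °C map it had 12992 contacts, 0.931 times the expected number (0.915 to 0.947), against 0.605. The log2 ratio over matched fragments was 0.50 at 37 °C (0.44 to 0.56) and 0.62 at 25 °C (0.59 to 0.65). The right arms of IV and XIII were themselves below other arms at these distances, with log2 values of -0.32 and -0.12 at 37 °C and -0.45 and -0.25 at 25 °C. Against every other arm the near-side log2 ratio was 0.32 at 37 °C and 0.35 at 25 °C.

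Single arms were then ranked at the same distances. Of 12 arms with at least 30 fragments at the distances of the far side, the right arm of XII had the lowest contact with centromeres relative to the others in both maps, with log2 values of -0.27 at 37 °C and -0.51 at 25 °C. The next lowest were the left arm of VII at 37 °C (-0.05) and the right arm of IV at 25 °C (-0.10). Of 26 arms with at least 30 fragments at the distances of the near side, it ranked 25 from the lowest at 37 °C (0.33) and 24 at 25 °C (0.36). The left arm of XII itself was above it in both maps, at 0.34 and 0.47.

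Along the arm, the ratio changed gradually within the near side and abruptly at the rDNA. On the near side of XII the ratio was 1.86 at 37 °C and 2.10 at 25 °C in the bin 10 to 19 fragments from the centromere. It was lowest at 80 to 89 fragments in the 25 °C map (0.655), with 0.789 in the 37 °C map, and was higher again next to the rDNA, 1.00 at 37 °C and 0.940 at 25 °C. On IV and XIII the bins at that distance had 0.379 and 0.403 at 37 °C and 0.266 and 0.246 at 25 °C. The first far-side bin of XII had 0.298 at 37 °C (67 contacts, 0.231 to 0.378) and 0.146 at 25 °C (143 contacts, 0.123 to 0.173). From there to the last bin the far side ranged from 0.177 to 0.452 at 37 °C and from 0.132 to 0.248 at 25 °C.

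**Figure D1:**
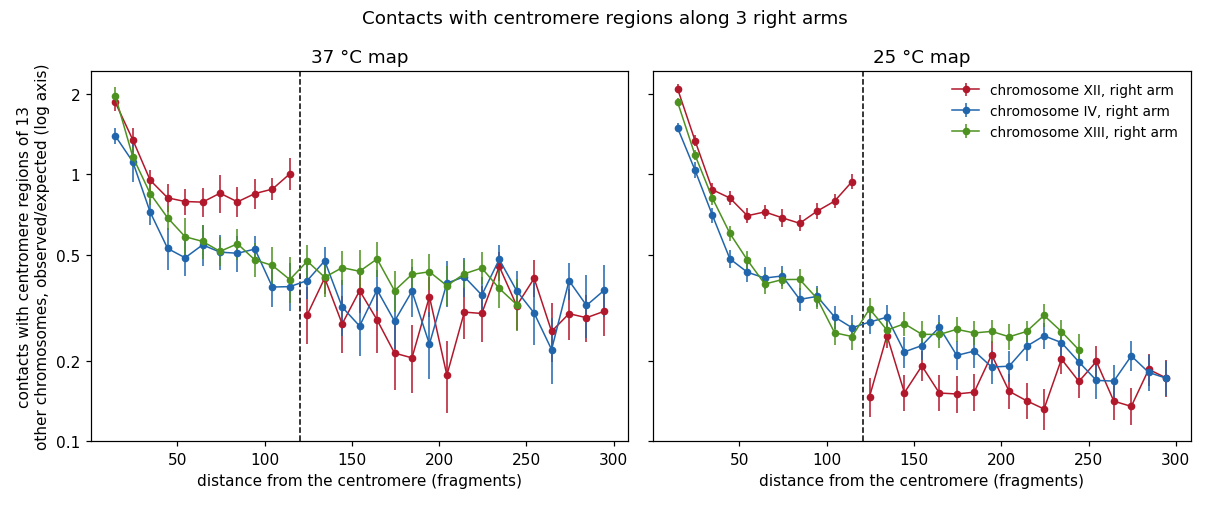
Observed over expected contacts with centromere regions of 13 other chromosomes (log axis) by distance from the own centromere, in bins of 10 fragments, for the right arms of XII, IV and XIII; bars are exact 95% Poisson intervals and the dashed line is the split at the rDNA. On XII the ratio next to the rDNA is 0.298 at 37 °C and 0.146 at 25 °C on the far side and 1.00 and 0.940 on the near side, and IV and XIII show no step of that size at the same distance.

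Between 20 fragments on the far side and 20 on the near side, the ratio was 0.380 against 0.917 in the 37 °C map and 0.201 against 0.824 in the 25 °C map. The log2 step was -1.27 at 37 °C (-1.47 to -1.07) and -2.04 at 25 °C (-2.18 to -1.89). At the same distances, the step was 0.24 on IV and -0.12 on XIII in the 37 °C map, and -0.02 and 0.01 in the 25 °C map. With 10 fragments to each side it was larger, -1.73 (-2.12 to -1.35) and -2.48 (-2.73 to -2.24). The step was also scanned over 2520 places on 22 arms, at least 50 fragments from the centromere and with room for about 20 fragments on both sides. Places closer to a centromere were not scanned. Among the scanned places, the step at the split was the lowest in the 37 °C map. In the 25 °C map the lowest was 1 fragment further out, -2.03, and that at the split was -2.02 in the same count over all other chromosomes. Among scanned places outside the right arm of XII, the lowest steps were -0.83 on the right arm of IV at 37 °C and -0.95 on the right arm of XV at 25 °C.

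The step was also seen from 1 fragment to the next. The last near-side fragment before that at the split had 21 contacts with centromere regions at 37 °C (a ratio of 1.16) and 60 at 25 °C (0.993). The fragment at the split had 61 (0.894) and 171 (0.572). The first far-side fragment had 4 contacts at 37 °C (0.344) and 11 at 25 °C (0.231), and the next had 3 (0.256) and 4 (0.0482). Over the first 12 far-side fragments the ratios ran from 0.155 to 0.513 at 37 °C and from 0.0482 to 0.231 at 25 °C. The 12 fragments measured over the last 13 near-side places ran from 0.587 to 1.66 and from 0.572 to 1.08. The ranges of the sides do not overlap in either map, and the fragment at the split is the lowest of the near side at 25 °C. At 37 °C the far-side values rest on 2 to 19 contacts each, and 0.513 is close to 0.587. How often such ranges do not overlap at other places was not counted.

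**Figure D2:**
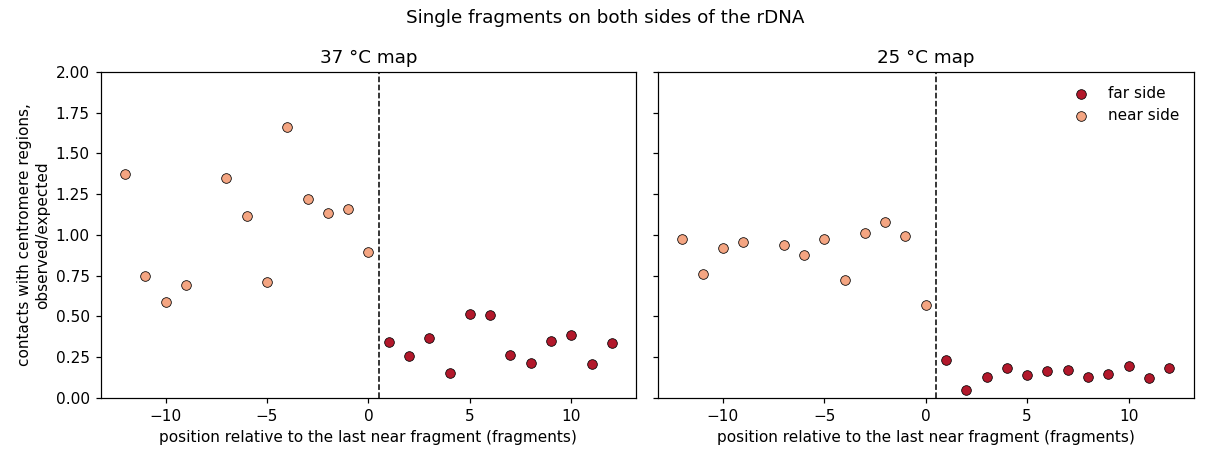
Observed over expected contacts of single fragments with centromere regions, by position relative to the last near-side fragment (0), in the 37 °C map (left) and the 25 °C map (right); the dashed line is the split. Every far-side point (0.155 to 0.513 at 37 °C, 0.0482 to 0.231 at 25 °C) lies below every near-side point, and 1 near-side fragment that failed the filter is not drawn. Single fragments at other places were not compared in this way.

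The rest of the contacts were divided by where the partner lay on its own chromosome. The far side met arm regions, at least 100 fragments from a centromere and outside chromosome ends, at 1.38 times the expected number at 37 °C and 1.48 at 25 °C. Its matched fragments had 1.33 and 1.42, so the log2 ratio over them was small, 0.05 (0.03 to 0.07) and 0.06 (0.05 to 0.07). The near side met arm regions less than its matched fragments did: 0.901 against 1.01 at 37 °C and 0.909 against 1.04 at 25 °C, log2 -0.17 (-0.20 to -0.14) and -0.19 (-0.20 to -0.17).

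Contacts with chromosome ends, the outermost 11 fragments (about 30 kb), were counted in the same way. Telomeres gather in clusters at the nuclear envelope in yeast. The far side had 0.890 at 37 °C and 0.821 at 25 °C, against 0.960 and 0.937 (log2 -0.11, -0.16 to -0.06, and -0.19, -0.22 to -0.16). That difference depended on the arm: against IV alone it was 0.023 at 37 °C (-0.035 to 0.080) and -0.061 at 25 °C (-0.093 to -0.029), and against XIII alone, whose arm ends within these distances, it was -0.42 and -0.50. With the end fragments of IV and XIII themselves left out it was -0.068 (-0.12 to -0.017) and -0.13 (-0.16 to -0.10). Against every other arm without its own end it was -0.15 at 37 °C (-0.20 to -0.11) and -0.27 at 25 °C (-0.30 to -0.24). These comparisons were chosen after seeing the data. At 37 °C the far side had no settled difference from matched arms, since the interval against IV alone included 0, while the others lay below 0. The near side had 0.825 and 0.803, against 0.889 and 0.847 (log2 -0.11, -0.17 to -0.049, and -0.078, -0.11 to -0.045), and was below IV alone and XIII alone in both maps. Along the far side the ratio with chromosome ends was 0.711 at 37 °C and 0.669 at 25 °C in the bin next to the rDNA, and 1.09 and 1.04 in the bin farthest from it.

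By distance of the partner from its own centromere, the far side was below its matched fragments for partners up to 99 fragments out and above them beyond. For partners 8 to 19 fragments out, it had 0.447 at 37 °C and 0.281 at 25 °C, against 0.516 and 0.380 for matched fragments. For partners 200 to 400 fragments out it had 1.46 and 1.54, against 1.37 and 1.48. The near side showed the opposite order for the closest and the most distant partners. Its ratio was 1.13 at 37 °C and 1.09 at 25 °C with partners 8 to 19 fragments out, against 0.908 and 0.862. With partners 200 to 400 fragments out it was 0.822 and 0.762, against 0.961 and 0.945. Since expected contacts match each fragment's total, a low ratio with one class of partner goes with a high ratio elsewhere.

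**Figure D3:**
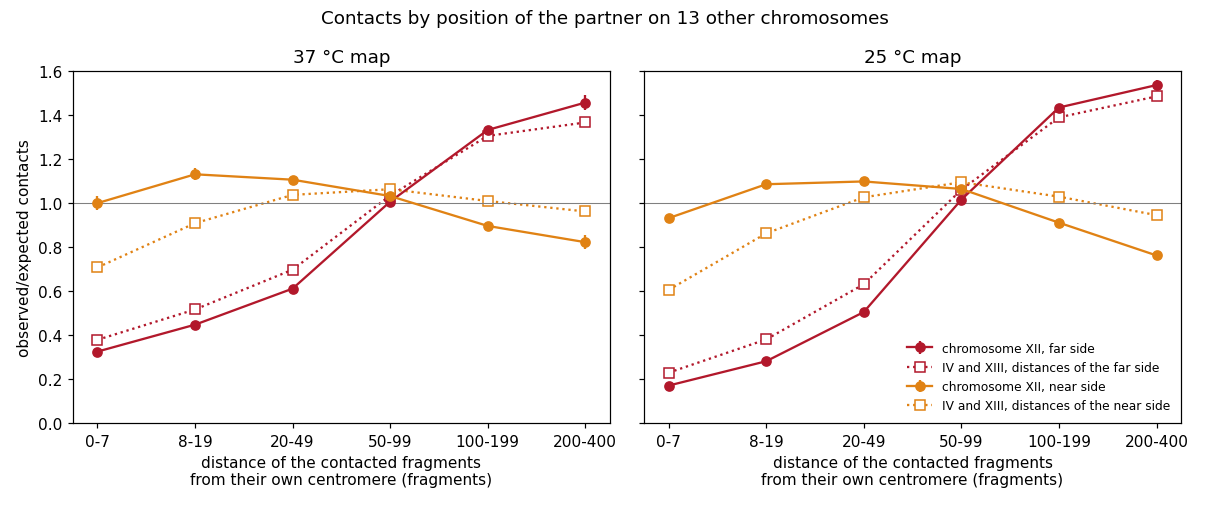
Observed over expected contacts of the far and near sides of the rDNA (filled points) and of distance-matched fragments on IV and XIII (open squares), by distance of the partner from its own centromere, with 37 °C on the left; bars are exact 95% Poisson intervals. The far side climbs from 0.325 at 37 °C and 0.170 at 25 °C at centromeres to 1.46 and 1.54 for the most distant partners, while the near side stays between 0.762 and 1.13.

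The difference at centromeres was spread over partner chromosomes. The far side was below matched fragments for 12 of 13 partner chromosomes at 37 °C, with the interval below 0 for 3, and for 13 of 13 at 25 °C, with the interval below 0 for 12. The near side was above them for 13 of 13 in both maps, with the interval above 0 for 12 at 37 °C and 13 at 25 °C.

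Whole partner arms differed more for the far side than for the near side. It met the left arm of III at 0.436 and 0.269 times the expected number (37 °C and 25 °C), and the left arm of I at 0.348 and 0.309. Both are among the shortest arms, with 23 and 34 fragments. It met the right arm of IV, the longest of the other arms with 378 fragments, at 1.58 and 1.82, and the right arm of XV, with 258, at 1.36 and 1.42. The near side met the same arms evenly: over all 28 arms its ratios ran from 0.938 to 1.12 at 37 °C and from 0.886 to 1.11 at 25 °C. Such an order was not particular to the far side. By whole partner chromosome, its matched fragments on IV and XIII had 0.472 and 0.332 with I, and 1.15 and 1.19 with VII. The far side had 0.350 and 0.238 with I, and 1.19 and 1.24 with VII.

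**Figure D4:**
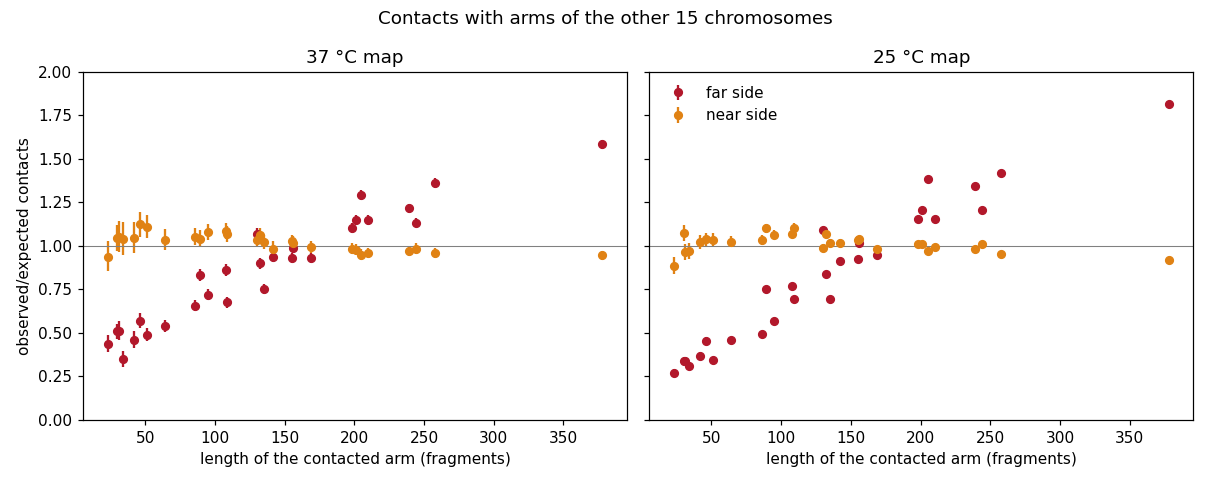
Observed over expected contacts of the far and near sides of the rDNA with each of 28 arms of the other 15 chromosomes, by length of that arm in fragments, at 37 °C (left) and 25 °C (right); bars are exact 95% Poisson intervals. Far-side values run from 0.348 to 1.58 at 37 °C and from 0.269 to 1.82 at 25 °C, higher for longer arms, while near-side values stay close to 1. Matched fragments on IV and XIII, which also met chromosome I less than VII, are not drawn.

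Within chromosome XII, contacts between the sides describe the rule and are given without comparison of rates between maps. The 37 °C map had 2160 contacts between near and far side, and its log2 ratio over pairs at the same distances from the centromere on IV and XIII was -1.57 (-1.64 to -1.50). The 25 °C map, from which the split was chosen, had 4685 contacts and a log2 ratio of -1.48. Close pairs within a chromosome were emptied in the deposited 25 °C map: of pairs 1 to 19 fragments apart, 92.2% were empty, where inter-chromosomal totals alone would leave 55.4%. The filled ones had a median of 15 contacts, and 0.331% of them had 1. In the 37 °C map 82.0% of such pairs were empty and the filled ones had a median of 4. Low counts are thus missing for close pairs, the step that removed them is not given in the sources used here, and contacts inside the chromosome are not rates.

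The design compares cells after 15 minutes at 37 °C with cells at 25 °C. The far side met centromeres more often in the 37 °C map than in the 25 °C map, 0.325 against 0.170 times the expected number, a log2 ratio of 0.93 (0.85 to 1.01). Matched fragments on IV and XIII also met them more often, with a log2 ratio of 0.72. The excess of the far side over them was 0.21 (0.10 to 0.31), and its deficit relative to them was thus smaller at 37 °C. The near side had nearly the same ratio in both maps, 0.999 and 0.931, a log2 ratio of 0.10 (0.05 to 0.16) against 0.22 for matched fragments. Its difference from them was -0.12 (-0.19 to -0.05), and against every other arm it was -0.028 (-0.083 to 0.026). With at most 5 contacts counted per pair the near-side log2 ratio turned to -0.026 (-0.079 to 0.027), so it has no settled sign.

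In bins of 10 fragments, counted with the centromere regions of all other chromosomes, 17 of 18 far-side bins had a log2 ratio above 0.5 at 37 °C over 25 °C. The background was 30.7% of 407 bins over all arms, and 68.4% of the 136 bins at the distances of the far side. The far-side median was 0.84 (0.27 to 1.31), the median of all bins 0.31 and that at the far-side distances 0.59. Of the 11 near-side bins 0 passed 0.5, near the background of 8.85% of the 260 bins at the distances of the near side. The near-side median was 0.12 (-0.14 to 0.30), and that of the 260 bins was 0.19. No bin in the genome was below -0.5. The far-side log2 ratio was positive for each of 13 partner centromeres, with the interval above 0 for 12. It ran from 0.17 with that of XI (69 contacts at 37 °C, -0.23 to 0.56) to 1.25 with that of I (0.91 to 1.59). Matched fragments on IV and XIII also had a higher ratio at 37 °C with each of these centromeres, so a rise with all of them was not particular to the far side. The matched ratio was 0.240 at 37 °C and 0.210 at 25 °C with XI, and 0.340 and 0.212 with I.

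**Figure D5:**
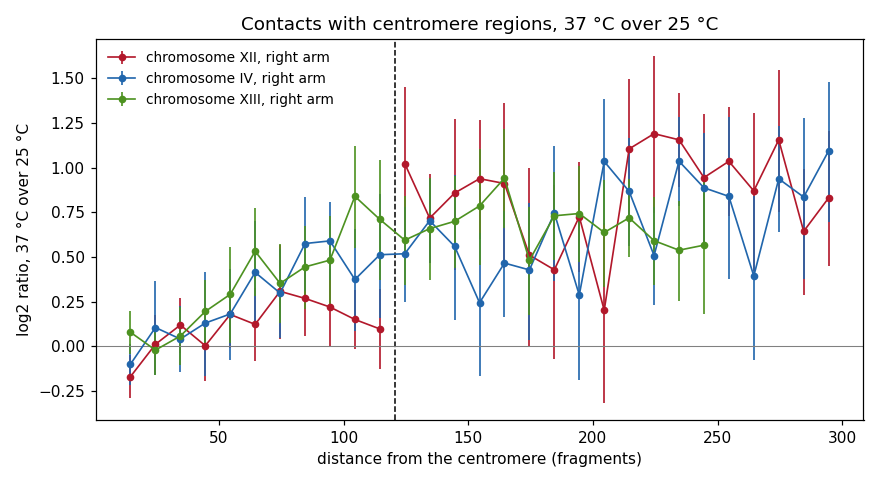
Log2 ratio of contacts with centromere regions of 13 other chromosomes, 37 °C over 25 °C, by distance from the own centromere for the right arms of XII, IV and XIII; bars are exact 95% binomial intervals and the dashed line is the split. Near-side bins of XII lie between -0.17 and 0.31 and far-side bins between 0.20 and 1.19, where the other arms are also above 0.

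The far-side value was lower without the raised fragments, 0.77 (0.66 to 0.88), when it had 0.242 times the expected number at 37 °C (851 contacts) and 0.142 at 25 °C (2318). Without them the deficit relative to matched fragments was -0.27 at 37 °C and -0.48 at 25 °C. With the 25 °C map thinned to the depth of the 37 °C map, the far-side log2 ratio of 37 °C over 25 °C was 0.93. Toward arm regions the far side was lower at 37 °C, log2 -0.11 (-0.13 to -0.09), as were its matched fragments (-0.10). Toward chromosome ends the far-side log2 ratio was 0.12 (0.07 to 0.16), and that of its matched fragments was 0.036.

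Gene values give the same contacts by position of the annotated genes. Each is the value of a neighbourhood of up to 11 fragments on the gene's own side, so neighbours share contacts, and genes are neither independent of each other nor a second observation of the step at the rDNA. Because the rDNA was anchored at the split, the side given to the genes next to it was fixed by that choice. Beyond the rDNA, the neighbourhood of MAS1 (XII, 491866 to 493254), a subunit of the mitochondrial processing protease, met centromeres at 0.299 times the expected number in the 37 °C map and 0.157 times in the 25 °C map, a log2 ratio of 0.93 (0.45 to 1.40). RRT15 (490406 to 490594) had 0.330 and 0.145. On the near side, ACS2 (445524 to 447575), an acetyl-CoA synthetase, had 1.09 and 0.819, a log2 ratio of 0.41 (0.20 to 0.61). RNH203 (447982 to 448314), a subunit of ribonuclease H2, had 1.07 and 0.801.

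Over all annotated genes placed on the sides, 293 lay on the far side, and all had a log2 ratio above 0 in their neighbourhood. Of these, 282 (96.2%) passed 0.5, with a median of 0.85. Of all neighbourhoods of 11 fragments at the distances of the far side, 70.0% of 1343 passed it, with a median of 0.61, and of those at all distances 30.5% of 4137. Of 139 near-side genes 0 passed 0.5, with a median of 0.17. The interval was above 0 for 66 of them and below 0 for 9. No share by interval was computed over all neighbourhoods, so these counts are not read as a trait of the near side. At the distances of the near side 9.02% of 2561 neighbourhoods passed 0.5, with a median of 0.19. A contrast between these distances, smaller than that between the sides of the rDNA, is thus present over all arms, and the counts below are to be read against these shares.

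Ribosomal protein genes numbered 12 on the far side, all past 0.5, with a median of 0.96, and 4 on the near side, 0 past it, with a median of 0.027. The highest was RPP0 (805887 to 806825), a protein of the ribosomal stalk, whose neighbourhood had 0.320 at 37 °C and 0.120 at 25 °C (log2 1.42, 1.03 to 1.80). RPL38, a protein of the large subunit, had a log2 ratio of 1.20. The lowest were RPL15A (201976 to 202590), close to the centromere, with 1.59 and 1.70 (log2 -0.096, -0.22 to 0.027), and RPS0B, of the small subunit (-0.024).

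The list of ribosome biogenesis genes had 9 on the far side, all past 0.5 (median 0.72), and 3 on the near side, 0 past it (median -0.0027). UTP21 (934414 to 937233), of the complex that processes the small subunit's RNA, had 0.293 at 37 °C and 0.141 at 25 °C, and a log2 ratio of 1.06 (0.66 to 1.44). NMD4, which the list held although it acts in nonsense-mediated decay of mRNA, had 1.01. RRN5 (423683 to 424774), of the factor that recruits RNA polymerase I to the rDNA promoter, lay before the rDNA, with 0.839 and 0.841 and a log2 ratio of -0.0027 (-0.16 to 0.15). REX2, an RNA exonuclease, was at -0.045.

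Heat shock factor targets were found on the far side alone, 3 in number. TMA10, which associates with ribosomes, had a log2 ratio of 1.20, HSP60 (663284 to 665002), the mitochondrial chaperonin, 0.71 (0.27 to 1.14), and CPR6, a co-chaperone of Hsp90, 0.58 (0.21 to 0.94). Their neighbourhoods had between 0.247 and 0.310 times the expected number at 37 °C and between 0.135 and 0.167 at 25 °C, within the range of the far side.

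Genes of chromosome and nuclear organisation numbered 8 on the far side, all past 0.5 (median 0.91), and 2 on the near side, 0 past it. EST2 (766542 to 769196), the telomerase reverse transcriptase, had 0.289 in the heated cells and 0.118 at 25 °C, a log2 ratio of 1.29 (0.89 to 1.68). NUP2, a nucleoporin, had 1.06. SMC4, a condensin subunit, and CDC45, of the replicative helicase, lay on the near side with 0.036 and 0.28. Of 14 far-side tRNA genes 12 passed 0.5, and 0 of 4 on the near side. TRR4 (818609 to 818680), for an arginine tRNA, had 1.19 and YNCL0040W had 1.16. YNCL0037W, on the far side, had 52 contacts at 37 °C and a log2 ratio of 0.14 (-0.32 to 0.58), and YNCL0008W, on the near side, -0.016.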

How the data were processed

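The authors deposited 1 table of contact counts per temperature (whole numbers for each pair of fragments, replicates combined, no coordinates). Bowtie 1.1.0 and build R64 are named per the submitters' processing notes; a description of later filters was not given in the sources used here. At 37 °C the map held 4383 fragments and 1937970 contacts and the 25 °C map 4388 and 5920062. Chromosome blocks and centromeres were found from contacts, and chromosome XII was placed at rows 2645 to 3017, with its centromere at row 2703, 18.3 kb from that in the RefSeq gene table of R64. Rows of the maps were matched in order (4381 fragments, largest shift 6 rows). The lowest 2% of fragments in either map were left out (4281 kept). Expected inter-chromosomal contacts were products of fragment factors from iterative proportional fitting. Matching used bins of 10 fragments from the centromere. Ratios carry exact Poisson intervals, ratios between maps Clopper-Pearson intervals, and log2 ratios over matched fragments or differences of them normal intervals on the log scale.

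The members, lists and comparisons were chosen with earlier results of these data known. The step at the rDNA, its scan along arms and the ranks of arms were chosen after seeing the data. Genes were named by rule: the nearest 2 named protein genes on each side of the rDNA, and the 2 highest and 2 lowest log2 ratios of each list; tRNA genes were taken by their annotated type, since the list's name pattern matched none. Scripts were tested on simulated data, where the largest error of a planted log2 ratio was 0.10. The near-side log2 ratio of 37 °C over 25 °C, 0.10, is of about that size, as is its difference from matched fragments, -0.12. Some log2 ratios over matched fragments are also of that size or smaller. Among them are those of the far side with arm regions (0.05 and 0.06) and of the near side with chromosome ends (-0.11 and -0.078). The counting intervals do not cover errors of the method. Python 3.11.15, NumPy 2.4.6, pandas 2.3.3, SciPy 1.17.1 and Matplotlib 3.10.9 were used. Alternatives changed the matched arms, the expected counts, the filters, the centromere region, the split and the depth. No sequences are shown, since no genome was used here.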

Additional observations from a re-analysis of the deposited data

How the results depend on the processing

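The split fell at the same row in the 37 °C map, so placing it there changed nothing, and the sign of the contacts between the sides at 25 °C was fixed by the choice of the split. Of the other 84 alternative values, for 9 results, 83 kept their sign. The exception was the near-side log2 ratio of 37 °C over 25 °C, which was -0.026 with at most 5 contacts per pair; the far-side one was then 0.80. With the right arm of IV alone as the matched arm, the far-side log2 ratio with centromere regions was -0.15 at 37 °C (-0.24 to -0.05) and -0.35 at 25 °C. For the near side it was 0.62 at 37 °C and 0.71 at 25 °C, and between the sides -1.68 and -1.58. With XIII alone it was -0.33 and -0.60 for the far side, 0.37 and 0.54 for the near side, and -1.65 at 37 °C between the sides. The arm of XIII is shorter and matched only 129 of the 177 far-side fragments. With every other arm it was -0.53 at 25 °C for the far side and 0.32 and 0.35 for the near side. Without the raised fragments, the far-side ratio of 37 °C over 25 °C was 0.77, the near side was at 0.56 at 37 °C, the sides at -1.71 with each other at 37 °C, and the step at -1.61 and -2.45. Without 10 fragments to each side of the split, the near side was at 0.57 and the sides at -1.56 with each other, both at 25 °C. A centromere region of 10 kb gave 0.69 for the near side at 25 °C. For these the cause was not tested. Of the 84 values, 63 lay inside the counting interval of the value reported. The temperature difference relative to matched fragments was 0.19 to 0.27 over 12 alternatives for the far side, all with intervals above 0, and -0.17 to -0.028 for the near side, where 10 of 12 intervals excluded 0. The 37 °C map has fewer contacts, and single far-side fragments rest on few of them. No paired analysis was possible because the replicates of each temperature were combined in 1 map, and leaving out a replicate was not run for the same reason.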
